A study of Bos taurus with 12 samples.

Results

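Both mature arms of miR-126, bta-miR-126-3p and bta-miR-126-5p, were described in small RNA sequencing of bovine mammary gland. The members were the 2 rows of the deposited matrix that carry these names, of 388 mature miRNAs listed in 426 precursor entries. Each arm is listed with 1 precursor, bta-mir-126. The rule uses names alone, although miR-126 was taken up with earlier results of these data known.

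MiR-126 is the classical microRNA of the endothelium. Its hairpin lies within the gene EGFL7, which encodes a protein secreted by endothelial cells, and in the RefSeq gene table of assembly ARS-UCD2.0 bovine MIR126 also falls inside the span of EGFL7. The hairpin yields a 3p arm, known to raise the response of endothelial cells to VEGF by lowering inhibitors such as SPRED1 and PIK3R2, and a 5p arm, known to act on the Notch inhibitor DLK1 and on endothelial proliferation. In the mammary gland a dense capillary bed surrounds the alveoli and delivers the substrates of milk synthesis.

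The study compared mammary biopsies of 12 multiparous Chinese Holstein cows, 3 in each of 4 groups, to find miRNAs related to milk protein. The phenotype, a high or a low milk protein percentage, was defined for all cows from herd records of the previous lactation. HP (high) and LP (low) cows were sampled near peak lactation. HD (high) and LD (low) cows were sampled in the non-lactating period before calving. Every library comes from a different, healthy cow of 1 farm, so stages are compared between cows. Levels are in the unit the authors call TPM, which here is the reads of a miRNA scaled to nearly the same total of miRNA reads in every library, with no correction for length. The smallest steps of the values imply 6026620 to 23577195 reads per library. The median was 10732359 for the lactation libraries, against 21207959 for the non-lactating ones. HD replicate 1 (11047232) and LD replicate 1 (14326364) lay nearer the lactation libraries. These totals are inferred and enter a read once for every precursor it was counted at. In HD replicates 2 and 3 (22037855 and 23577195) they exceed the mapped reads that the study's sequencing totals and average mapping rate allow. Part of the mapped reads belonged to other RNA classes, so totals of other non-lactating libraries may be too high as well. Depth, its difference between stages and read numbers are therefore approximate. Every direction given follows the group names heading the columns of the deposited matrix. The paper words many directions the other way, among them miR-126 and miR-142 with stage. With phenotype this held for most miRNAs of the cell type lists below that it calls differentially expressed (DE). Between LP and HP all such miRNAs had the opposite sign here. Among them were let-7f (log2 difference -0.75), miR-150 (-1.69), miR-24-3p (1.31) and miR-451 (1.36). Between LD and HD, miR-132 (0.29) and miR-150 (0.02) had the paper's sign and the others the opposite. The paper names miR-148a as highest in lactation and miR-143 in the non-lactating period, and the columns order this pair the same way. Which labelling holds was not settled. The matrix holds no mRNA, so the endothelial source of miR-126 was not tested. A biopsy mixes cell types, and fewer cells of a type cannot be told apart from less RNA per cell.

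MiR-126-3p was among the most abundant miRNAs of the gland in every library. Its level was 15321, 10643 and 12161 TPM in the 3 HP libraries and 13383, 16499 and 14397 TPM in the 3 LP libraries. It was 8794, 6400 and 5056 TPM in the HD libraries and 10711, 6546 and 4654 TPM in the LD libraries. Of the 6 lactation libraries 5 stood above every non-lactating library, and HP replicate 2 lay just below LD replicate 1. Group means were 12709 ± 2387 TPM (HP), 14760 ± 1589 TPM (LP), 6750 ± 1893 TPM (HD) and 7304 ± 3098 TPM (LD), each over 3 libraries with the SD. The rank of miR-126-3p among the 388 miRNAs lay between 11 and 17 in the lactation libraries and between 18 and 31 in the non-lactating libraries. In lactation its neighbours in order of mean level were let-7a-5p at 16224 ± 5410 TPM and miR-125a at 10535 ± 2871 TPM, and in the non-lactating period miR-30e-5p at 7161 ± 1940 TPM and let-7i at 6418 ± 1454 TPM (SD, n = 6). Each neighbour differed from it by less than the neighbour's own SD, except miR-125a.

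MiR-126-5p was a minor product. Its level was 22.6, 21.6 and 22.1 TPM in the HP libraries and 35.4, 28.9 and 35.3 TPM in the LP libraries. It was 15.3, 8.03 and 14.3 TPM in the HD libraries and 27.4, 23.1 and 21.5 TPM in the LD libraries. Within each stage every library of the low protein group stood above every library of the high protein group. The LD libraries overlapped the HP libraries, so the stages as a whole were not separated. Group means were 22.1 ± 0.475 TPM (HP), 33.2 ± 3.70 TPM (LP), 12.5 ± 3.93 TPM (HD) and 24.0 ± 3.05 TPM (LD). By mean level miR-126-5p ranked 177 in lactation, between miR-328 at 27.9 ± 8.95 and miR-455-5p at 27.2 ± 6.58 TPM, and 207 in the non-lactating period, between miR-191 at 18.4 ± 3.79 and miR-18a at 17.8 ± 6.37 TPM (SD, n = 6). Those neighbours were not separated from it by the spread between libraries.

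By the inferred steps the 5p level rests on few reads, about 136 to 498 per library, against 92339 to 185314 for miR-126-3p. The criterion for treating reads as recovered was met in 1 library and missed in all others, so the intervals that follow are approximate. The 95% Poisson interval of HP replicate 1, the highest HP library, was 18.9 to 26.7 TPM and that of LP replicate 2, the lowest LP library, was 25.9 to 32.3 TPM, so in lactation the nearest libraries could not be told apart by counting error alone. In the non-lactating period the interval of the highest HD library, 13.1 to 17.8 TPM, and that of the lowest LD library, 19.6 to 23.6 TPM, did not meet. Such intervals hold counting error alone, because reads copied by PCR do not each stand for a molecule.

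**Figure D1:**
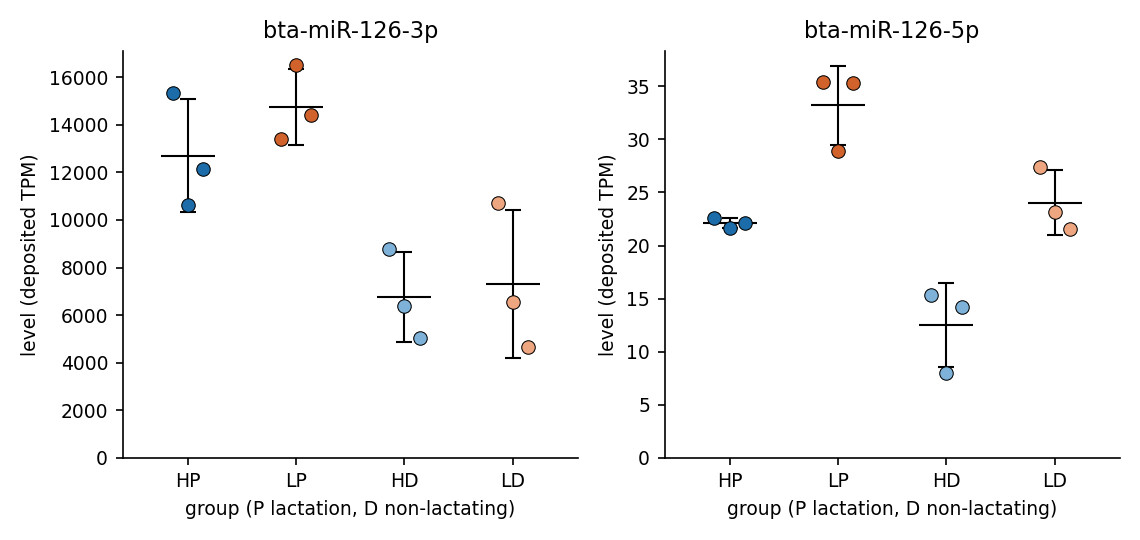
Levels of bta-miR-126-3p (left) and bta-miR-126-5p (right) in deposited TPM for each of the 12 libraries, by group; points are libraries and lines are the mean ± SD (n = 3). MiR-126-3p lies between 10643 and 16499 TPM in lactation and between 4654 and 10711 TPM in the non-lactating period, and every LP or LD library lies above every HP or HD library of the same stage for miR-126-5p.

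The first question was whether either arm differed between the stages. Both arms were higher in lactation by the column names, whereas the paper names miR-126 as higher in the non-lactating period. In the same statement it names miR-142 as higher in lactation. By the column names miR-142-5p was lower in lactation, with a log2 difference of -0.77. MiR-126-3p rose by a log2 fold change of 1.12 (SE 0.17, 6 against 6 libraries, adjusted p = 0.000272, limma with Benjamini-Hochberg adjustment over 388 miRNAs), a fold of 2.18 with a 95% interval of 1.69 to 2.81. Stage differences were common, since 172 of the 388 miRNAs (44.3%) passed the same test, 86 higher and 86 lower, and miR-126-3p had the 28th smallest p. After division by size factors, which correct for a few miRNAs taking a large share of the reads, miR-126-3p was 10854 to 16628 normalized TPM in lactation and 5423 to 8573 in the non-lactating period, with no overlap. The same held for 45 of 388 miRNAs (11.6%). In TPM as deposited 23 miRNAs (5.93%) had all lactation libraries above all non-lactating libraries, and miR-126-3p was not one of them because of HP replicate 2 and LD replicate 1. The exact permutation test of the normalized values gave p = 0.00216, two-sided, the smallest that 6 against 6 libraries allow, which restates the absence of overlap.

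The rise of miR-126-3p was of like size in both phenotypes. The log2 fold change was 1.14 (SE 0.24, adjusted p = 0.00414, limma) from HD to HP and 1.11 (SE 0.24, adjusted p = 0.00812, limma) from LD to LP. In these comparisons 121 (31.2%) and 86 (22.2%) of 388 miRNAs passed. Of the 121, 57 were higher in HP and 64 lower, a split that became 34 and 59 with TPM as deposited. The difference between the 2 rises was -0.03 on the log2 scale, with a fold interval of 0.592 to 1.63 (adjusted p = 0.993, limma interaction), and 0% of the miRNAs passed the interaction test, while 20 had an unadjusted p under 0.05.

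MiR-126-5p rose less firmly. Over all libraries its log2 fold change was 0.73 (SE 0.24, adjusted p = 0.0259, limma), a fold of 1.66 with an interval of 1.16 to 2.39. The exact permutation test, which counts the difference between phenotypes as spread, gave p = 0.0671, two-sided. The change was 1.00 (SE 0.34, adjusted p = 0.0416, limma) between HD and HP and 0.47 (SE 0.34, adjusted p = 0.373, limma) between LD and LP. The interaction, -0.54 on the log2 scale (adjusted p = 0.963, limma), had a fold interval of 0.335 to 1.42, so the data did not show a different stage change in low and high protein cows. The call over both phenotypes was lost without HP replicate 2, LP replicate 1, LP replicate 3 or HD replicate 2 (adjusted p of up to 0.0679 in limma) and with TPM as deposited (adjusted p = 0.0606). The call between HP and HD was lost in 6 of 12 fits that left out 1 library, with a highest adjusted p of 0.146 without HD replicate 2.

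The second question was whether either arm differed with milk protein percentage. For miR-126-3p, LP exceeded HP by a log2 fold change of 0.26 (SE 0.25, adjusted p = 0.716, limma) and LD exceeded HD by 0.30 (SE 0.27, adjusted p = 0.993, limma). Neither passed, and the fold intervals of 0.809 to 1.78 in lactation and 0.798 to 1.90 in the non-lactating period leave room for a change of either sign. Between LP and HP 1 of 388 miRNAs (0.258%) passed and 61 had an unadjusted p under 0.05. Between LD and HD 0% passed and 19 had an unadjusted p under 0.05.

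For miR-126-5p, LP exceeded HP by a log2 fold change of 0.60 (SE 0.32, adjusted p = 0.434, limma) and LD exceeded HD by 1.15 (SE 0.40, adjusted p = 0.935, limma), folds of 1.51 and 2.22. Neither passed adjustment. The study's rule for DE miRNAs takes an unadjusted p under 0.05 together with a log2 fold change past 0.8 in either direction. Under that rule 39 miRNAs (10.1%) were DE between LP and HP and 13 (3.35%) between LD and HD in these fits. MiR-126-5p was one of the 13, with the 6th smallest p. The paper's own lists of DE miRNAs, from DESeq2, do not hold miR-126-5p. In these fits miR-126-5p was no longer DE without HD replicate 1, HD replicate 2, LD replicate 2 or LD replicate 3, nor with either other scaling. With TPM as deposited its difference was 0.93 and the median of all miRNAs moved from 0.03 to -0.16. With 3 libraries against 3, an exact permutation test cannot go below 0.1, and miR-126-5p gave that value in both stages. MiR-126-3p gave 0.1 in that test between LD and HD, where its normalized levels did not overlap either, and 0.3 between LP and HP.

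The direction of miR-126-5p was the same in both stages. Calling the higher side low protein rests on the column names. The paper words the phenotype direction the other way for most DE miRNAs of the cell type lists. Every LP library exceeded every HP library for 35 miRNAs (9.02%), and every LD library exceeded every HD library for 6 (1.55%). MiR-126-5p was the 1 miRNA of 388 (0.258%) that did both in deposited TPM, a pattern singled out after its values were seen. On size-factor normalized values 3 miRNAs (0.773%) did, namely miR-126-5p, miR-301a and miR-34b, and in deposited TPM 4 miRNAs did so in the opposite direction. Over both stages the low protein cows exceeded the high protein cows by a log2 fold change of 0.91 (SE 0.24, adjusted p = 0.186, limma), a fold of 1.88 with an interval of 1.31 to 2.70. This was the 4th smallest p of 388, where 43 miRNAs (11.1%) had an unadjusted p under 0.05 and 0% passed adjustment. For miR-126-3p the log2 difference over both stages was 0.32 (SE 0.17, adjusted p = 0.495, limma). This contrast was added after the values were seen.

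The mean differences of red blood cell markers pointed the same way as that of miR-126-5p, without passing the test. The summed level of miR-144, miR-451 and miR-486, which erythrocytes carry, ranged from 781 to 1378 TPM in HP and from 1126 to 2041 TPM in LP. It ranged from 413 to 773 TPM in HD and from 680 to 6127 TPM in LD, where the highest was LD replicate 2. Over both stages the log2 differences were 1.91 (SE 0.72) for miR-144, 1.51 (SE 0.69) for miR-451 and 1.01 (SE 0.54) for miR-486, with adjusted p from 0.343 to 0.495 (limma), and 2 of 3 had an unadjusted p under 0.05. Without LD replicate 2 the difference of miR-126-5p was 0.84 (adjusted p = 0.445, limma). For these markers the paper lists the opposite direction, miR-144 and miR-451 down in LP and miR-144 and miR-486 down in LD. The part of blood in the result was not tested.

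Since both arms come from 1 hairpin, their ratio within a library depends on neither depth nor scaling. Reads of 3p per read of 5p numbered 679, 492 and 551 in the HP libraries and 378, 570 and 408 in the LP libraries. They numbered 575, 797 and 355 in the HD libraries and 390, 283 and 216 in the LD libraries. The HD libraries alone spanned 355 to 797, and the groups overlapped in each stage. Group means were 574 ± 95.4 (HP), 452 ± 103 (LP), 576 ± 221 (HD) and 296 ± 88.0 (LD), each with its SD over 3 libraries, and the mean of all 12 was 475 ± 168. The 5p arm was thus 0.125% to 0.461% of the reads of both arms.

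Of 38 hairpins listed with both arms, 19 had more 3p, 18 more 5p and 1 equal values, and the median absolute log2 ratio was 2.07. These ratios were taken after size factors and a pseudocount of 1. MiR-126 had a mean log2 ratio of 5p over 3p of -8.73, the 3rd most unequal after mir-22 at -9.90 and mir-21 at 9.14, and the nearest hairpin on the other side was mir-27a at -7.69. A larger arm exceeding the smaller more than 100 times was found in 7 hairpins. The SD of the miR-126 ratio within groups was 0.391 on the log2 scale against a median of 0.527 over hairpins, and 27 of the 38 varied more.

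The arm ratio did not pass a test between stages. After size factors and a pseudocount of 1, the log2 ratio of 5p over 3p was lower in lactation by a difference of -0.39 (SE 0.22, adjusted p = 0.192, limma over 38 hairpins). For the ratio of deposited TPM without a pseudocount the difference was -0.34, with an exact permutation p = 0.299, two-sided. In the limma test 7 hairpins (18.4%) passed, and the 5 smallest p belonged to mir-30b (0.93), mir-362 (-1.54), mir-17 (-0.77), mir-345 (1.00) and mir-151 (0.30), each given as its log2 difference. Between phenotypes the ratio was higher in LP than HP by 0.33 (SE 0.23, adjusted p = 0.759, limma) and in LD than HD by 0.85 (SE 0.37, adjusted p = 0.674, limma). Over both stages the difference was 0.59 (SE 0.22, adjusted p = 0.382, limma), the 2nd smallest p among 38 hairpins, of which 3 (7.89%) had an unadjusted p under 0.05. That contrast too was chosen after the values were seen.

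**Figure D2:**
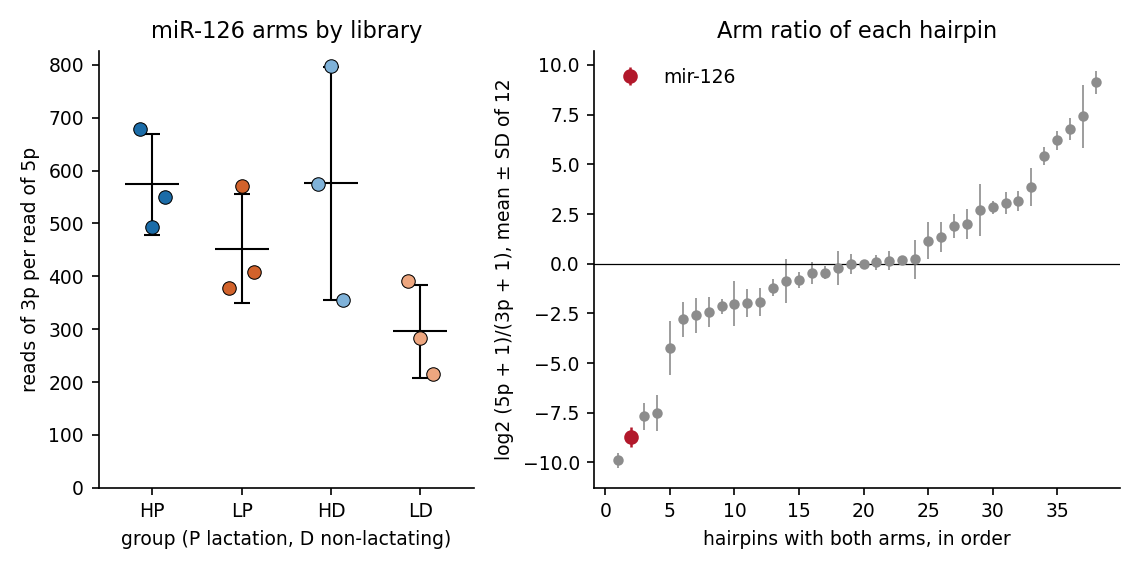
Left, reads of miR-126-3p per read of miR-126-5p in each library by group, with mean ± SD (n = 3). Right, the log2 ratio of 5p over 3p of the 38 hairpins listed with both arms, in order, as mean ± SD over 12 libraries (after size factors and a pseudocount of 1), with mir-126 in red at -8.73; 1 hairpin lies lower.

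The arms followed each other loosely. Over the 6 lactation libraries Pearson's r of the log2 normalized levels was 0.727 (exact permutation p = 0.0903, adjusted 0.181 over 2 relations) and Spearman's rho 0.771 (exact permutation p = 0.103). Over the 6 non-lactating libraries r was 0.627 (exact permutation p = 0.193, adjusted 0.193) and rho 0.771 (exact permutation p = 0.103). Without the 2 libraries farthest from the median of miR-126-3p, r was 0.453 and 0.287 over the 4 libraries left in each stage, whose range of miR-126-3p is narrower by construction. Neither relation passed 0.05 over 6 libraries. After group means were subtracted r was 0.199 over 12 libraries, which ranked miR-126-5p 82nd of 233 miRNAs with a mean of at least 10 TPM.

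The vessel-associated miRNAs did not share the rise of miR-126-3p. The list held 27 miRNAs known from endothelial cells or the growth of vessels, of which 26 were in the table. With stage 1 rose, 4 fell and 21 did not pass, where of all miRNAs 22.2% rose and 22.2% fell, and the median log2 difference was -0.14 against -0.01 over all miRNAs. With TPM as deposited 1 rose and 3 fell, and with TPM rescaled without miR-148a and miR-143, 1 rose and 1 fell. MiR-139, whose 5p arm is known to lower the chemokine receptor CXCR4, rose by 1.41 (SE 0.19, adjusted p = 0.000133, limma). MiR-296-3p fell by 1.51, miR-221, which lowers the receptor KIT, fell by 0.83, miR-218, which is tied to SLIT and ROBO signalling, fell by 0.72 and miR-503-5p fell by 0.66 on the log2 scale. MiR-503-5p was scarce, at 0.510 ± 0.439 TPM in lactation and 1.80 ± 1.54 TPM in the non-lactating period (SD). The pseudocount of 1 therefore weighs on its fold. For the miR-17-92 cluster, known to shape sprouting of vessels, the differences ranged from -0.41 for miR-17-5p to 0.35 for miR-17-3p, and none of its 7 listed members passed. The broadly expressed pair miR-23a and miR-27a-3p stood at 0.12 and -0.10, the hypoxia-induced miR-210 at 0.32 and let-7f at 0.24, none of them past the test. The summed level of the list was 97324 to 127054 TPM in lactation and 110027 to 144024 TPM in the non-lactating period. Many of these miRNAs are also made by other cells of the gland.

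Epithelial miRNAs were higher in lactation together with miR-126-3p. Of 7, 6 rose, namely miR-375 by a log2 fold change of 3.12, miR-200a by 1.30, miR-141 by 1.28, miR-200c by 1.09, miR-429 by 0.69 and miR-200b by 0.65, while miR-205, a marker of basal epithelium, stood at -0.08 and did not pass. Of all miRNAs 22.2% rose. The count was 4 of 7 with TPM as deposited, where 14.4% of all miRNAs rose, and 5 of 7 with the rescaled TPM, where 20.1% rose. Their summed level was 36967 to 48291 TPM in lactation and 15311 to 39157 TPM in the non-lactating period, with no marker at 0 in all libraries. Per 1000 TPM of these epithelial miRNAs, miR-126-3p amounted to 266 to 446 TPM in lactation (median 307) and 163 to 428 TPM in the non-lactating period (median 262), which overlap. Per 1000 TPM of miR-143 and miR-145, which smooth muscle cells and pericytes express, it amounted to 112 to 262 TPM in lactation and 29.2 to 111 TPM in the non-lactating period, which do not. The sum of miR-143 and miR-145 was almost all miR-143. Ranges did not overlap either for the stromal miRNAs below, at 682 to 1679 against 259 to 506. For leukocyte and platelet miRNAs they were 1194 to 2646 against 415 to 843, also apart. The vessel-associated list gave 84.4 to 159 (median 139) against 32.3 to 97.3 (median 50.6), which overlap, as did the red blood cell and striated muscle ranges. Medians there were 9066 against 10818 for red blood cell and 63781 against 19607 for striated muscle miRNAs. Overlap of ranges therefore does not mean like medians. The part of tissue composition in the stage difference was not tested.

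The remaining lists held few calls. MiR-143 and miR-145 did not pass, at -0.26 and 0.85. Of 5 stromal miRNAs 2 fell, miR-214 by 1.17 and miR-199a-3p by 0.63 on the log2 scale, and of 5 leukocyte and platelet miRNAs 2 fell, miR-155 by 1.29 and miR-142-5p by 0.77, where 44.3% of all miRNAs were called with stage in either direction. Red blood cell miRNAs stood at 1.43 (miR-144), 0.92 (miR-451) and 0.58 (miR-486), and none of the 3 passed. Of 6 striated muscle miRNAs 4 were in the table and 1 rose, miR-499 by 1.14. Between phenotypes over both stages 0 miRNAs of any list passed. MiR-143 had a log2 difference of 0.86 (SE 0.30, adjusted p = 0.343, limma) and miR-142-3p one of 0.67 (SE 0.24, adjusted p = 0.343, limma) toward the low protein cows. In the same lists miR-145 (-0.30) and miR-150 (-0.79) pointed toward the high protein cows. So did the epithelial miR-205 (-0.44) and the vessel-associated miR-92a (-0.40). For miR-143 the paper lists the opposite direction, down in LP and in LD.

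**Figure D3:**
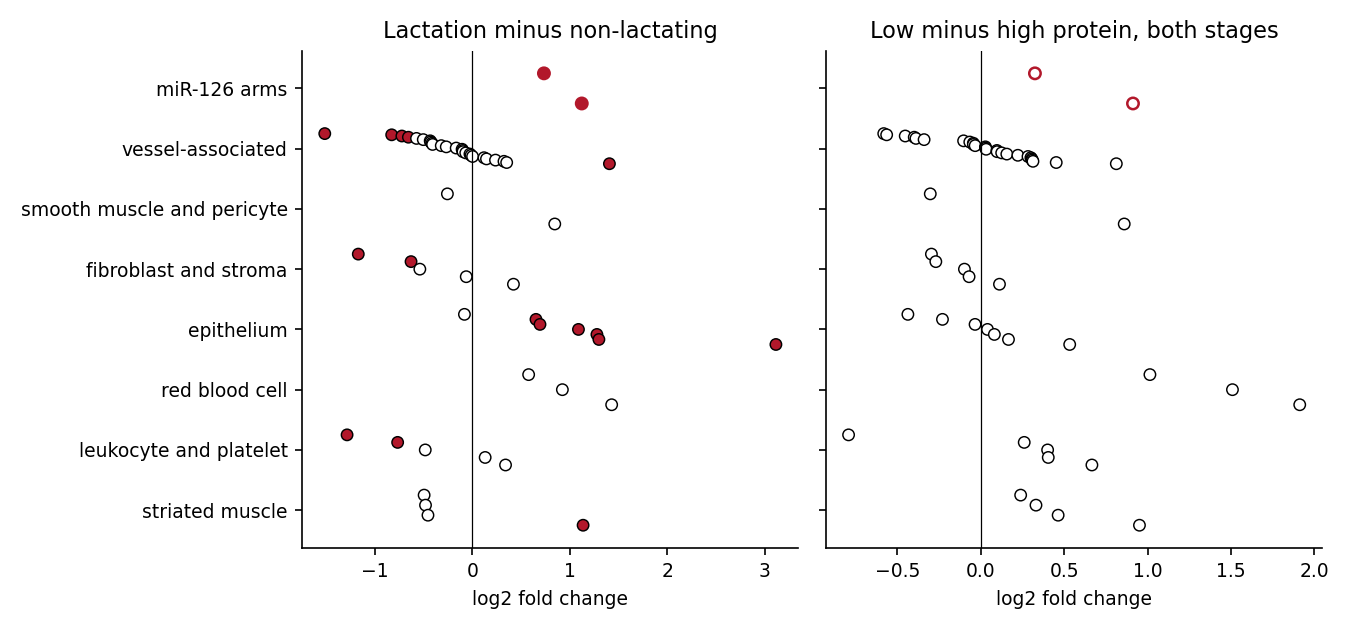
Log2 fold changes of the miR-126 arms and of the cell type lists between lactation and the non-lactating period (left) and between low and high protein cows over both stages (right); each point is a miRNA and filled points have a limma adjusted p under 0.05. On the left both miR-126 arms (0.73 and 1.12) and 6 of 7 epithelial miRNAs are filled on the positive side, against 1 of 26 vessel-associated miRNAs, and on the right no point is filled.

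Over the 12 libraries the miRNAs whose log2 normalized level was most like that of miR-126-3p were miR-29c (Pearson's r = 0.968), miR-29b (0.939), miR-15a (0.934), miR-148a (0.915) and miR-193a-3p (0.911), of 233 miRNAs compared. The least like were miR-93 (-0.949), miR-874 (-0.908) and miR-9-5p (-0.901). All 8 differed between stages in the limma test, so the points fall into 2 clusters by stage. MiR-148a, a miRNA abundant in milk, was at 154416 ± 29355 TPM in lactation and 25845 ± 13789 TPM in the non-lactating period (SD, n = 6), and after group means were subtracted its r with miR-126-3p was 0.009. The other 7 kept more of their relation. Their r was then 0.691 for miR-29c, 0.681 for miR-193a-3p, 0.525 for miR-15a and 0.436 for miR-29b. It was -0.824 for miR-9-5p, the lowest of the 233, -0.543 for miR-93 and -0.314 for miR-874. After that subtraction the highest were miR-30c (0.842), miR-22-3p (0.752), miR-30b-5p (0.749), miR-423-5p (0.732) and miR-28 (0.711).

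MiR-126-5p had other companions. Over the 12 libraries they were miR-30e-5p (r = 0.875), miR-98 (0.852), miR-144 (0.842), miR-374a (0.831) and miR-29b (0.794), and after subtraction of group means miR-374a (0.907), miR-379 (0.870), miR-26b (0.856), miR-146b (0.843) and miR-98 (0.823). MiR-29b was the 1 miRNA among the 5 highest of both arms over the 12 libraries, and no miRNA was among the 5 highest of both after subtraction. The points share libraries and size factors, and the values are a description.

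**Figure D4:**
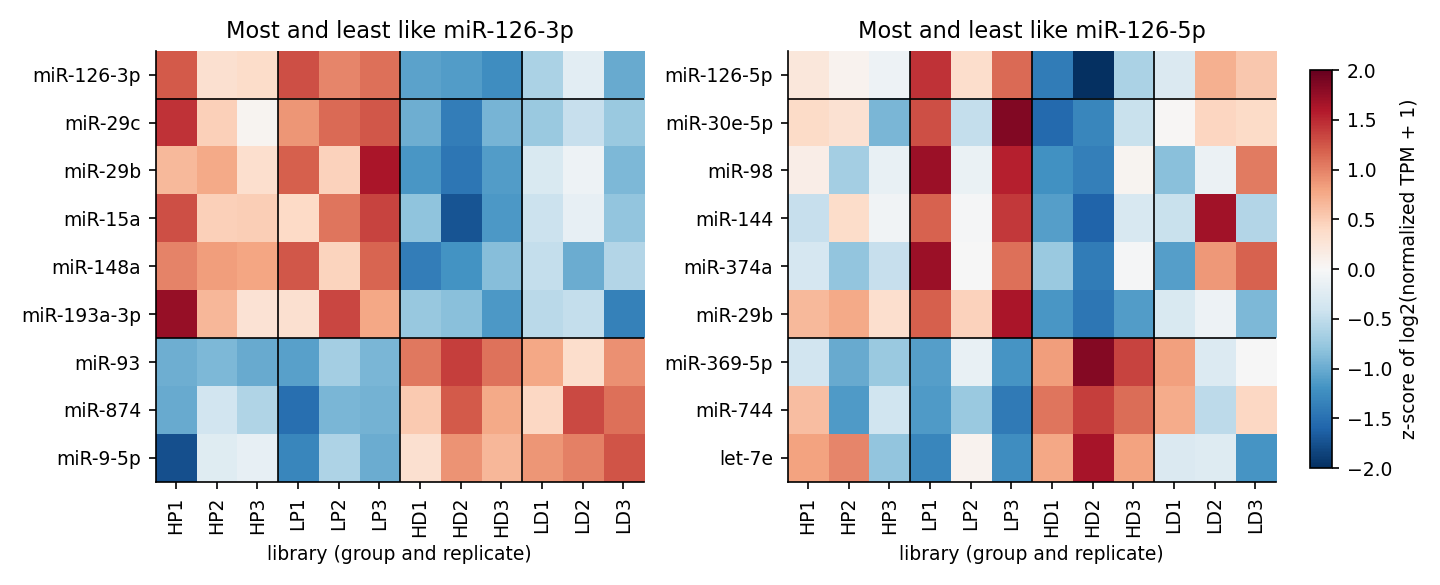
Z-scores over the 12 libraries of log2(normalized TPM + 1) for miR-126-3p (left) and miR-126-5p (right), each in the top row above the 5 miRNAs with the highest and the 3 with the lowest Pearson correlation; columns are libraries by group and replicate. On the left the colours change between lactation and non-lactating libraries, while on the right HD replicate 2 and LP replicates 1 and 3 are the extremes of miR-126-5p.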

How the data were processed

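Small RNA libraries of 12 mammary biopsies were analysed. Per the study's methods, adapters and poor bases were removed with Cutadapt and Trimmomatic and inserts of 18 to 30 nt were retained. Bowtie placed them on ARS-UCD1.2 with at most 1 mismatch, and the miRDeep2 quantifier assigned reads to miRBase entries. The values deposited by the authors are RPM under the name TPM, in 1 matrix with a column for each library, and 0 columns were left out. At least 97.6% of the values of each library were whole multiples of 1 step within 0.006 TPM, from which depth was inferred. Every library sums to nearly the same total, so a level is a share of miRNA reads and falls where others rise.

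For miRNAs with several precursors the one with the highest mean was used. Size factors by median of ratios were applied to TPM before log2(x + 1). Stage and interaction were fitted over 12 libraries, and each phenotype comparison over its own 6, using limma 3.58.1 (R 4.3.3, empirical Bayes, mean-variance trend) and a Benjamini-Hochberg adjusted p under 0.05. Arm ratios were fitted in the same way over 38 hairpins with both arms. The script was tested on simulated data. Exact permutation tests were two-sided (Python 3.11.15, scipy 1.17.1).

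The members, the cell type lists and the tests were chosen with earlier results of these data known. Besides the members and lists, miRNAs named were the 5 most and 3 least correlated with miR-126-3p, the 5 most correlated after subtracting group means, neighbours by level or arm ratio, and the 5 hairpins with the smallest p for stage. The same rule was applied to miR-126-5p, and miR-301a and miR-34b were named, after values were seen. Alternatives were deposited TPM, TPM rescaled without miR-148a and miR-143, pseudocounts of 0.1 and 5, a mean of at least 10 TPM, no trend, all precursor entries, a block for the replicate number, 1 fit of all libraries and leaving out each library. RefSeq gene names come from assembly ARS-UCD2.0, a build other than that of the files, so no coordinates are given.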

Additional observations from a re-analysis of the deposited data

How the results depend on the processing

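The rise of miR-126-3p with stage passed under every alternative run, at a log2 difference of 1.01 to 1.19 with all libraries and 1.03 to 1.19 without 1 library. For miR-126-5p it lost the threshold with TPM as deposited (0.63), and without 1 library it ranged from 0.62 to 0.87. For HP against HD miR-126-5p lost it with TPM as deposited (0.82), TPM rescaled without miR-148a and miR-143 (0.99) and a pseudocount of 5 (0.79), and ranged from 0.78 to 1.28 without 1 library. The interaction of miR-126-3p changed sign with TPM as deposited (0.16) and rescaled (0.17), and ranged from -0.16 to 0.16 without 1 library. The arm ratio between HP and HD ranged from -0.38 to 0.15 without 1 library. The causes were not tested. Over both stages exact permutation within stages, unadjusted, gave p = 0.04 for miR-126-3p (difference 0.32), 0.005 for miR-126-5p (0.91) and 0.03 for the arm ratio (0.64). That arm ratio was of deposited TPM without a pseudocount. The adjusted limma p values were above 0.05. The unadjusted limma p values were 0.077, 0.00236 and 0.0254, so for the last pair the adjustment alone makes the difference. For miR-126-5p the absence of overlap, which prompted the contrast, fixes the permutation p at its smallest value. Without 1 library miR-126-5p ranged there from 0.79 to 1.04 (adjusted p 0.0734 to 0.619).

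With stage 113 miRNAs of mean level of at least 10 TPM were called, against 172 of all. Between LP and LD 45 were called with TPM as deposited, 49 rescaled and 34 to 100 without 1 library, against 86. Between LP and HP 0 to 4 were called with all libraries and 0 to 10 without 1. Hairpins called with stage numbered 11 with a pseudocount of 5 or the block, 13 over every precursor entry and 3 to 12 without 1 library, against 7. The replicate number as a block gave miR-126-5p a difference of 1.00 between HP and HD with adjusted p = 0.0507, no longer called, and changed no other call of the members. The numbers belong to different cows. Same-numbered libraries deviated together in HD and LD for replicates 1 and 3 (r of 0.55 and 0.50) and not for replicate 2 (-0.11), and elsewhere r ranged from -0.39 to 0.11, so the numbers were not taken to pair the libraries. Tests of read counts with edgeR or DESeq2 were not run, since the criterion for recovered reads was missed in all but 1 library. Counting intervals of miR-126-5p rest on inferred reads.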
